A study of Rattus norvegicus with 6 samples.

Results

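The 10 genes described here are Fos, Fosb, Jun, Junb, Jund, Egr1, Ier2, Atf3, Zfp36 and Dusp1, immediate early genes that respond to stimuli such as tissue dissociation. They were chosen by name from 32883 annotated genes, and all 10 were found. Their RNA was counted in single cells of the pancreas of 6 male Wistar rats, 2 in each of 3 groups. The young rats were 2 months old and on a normal diet, at the start of the feeding. The old rats were 20 months old after 18 months on the normal diet, and the HFHF-old rats were 20 months old after 18 months on a high-fat, high-fructose diet. In every rat the pancreas was inflated with collagenase P through the bile duct, digested warm, enriched on a density gradient and digested again with TrypLE before droplet capture. All cells measured had passed through digestion, so RNA made in the animal and RNA made during the digestion cannot be told apart.

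Immediate early genes are transcribed within minutes of a stimulus, from factors that the cell already holds. Fos and Fosb pair with Jun, Junb or Jund to form AP-1, a dimer that binds DNA, while Egr1 is a zinc finger factor and Atf3 a stress-induced partner of the Jun proteins. Ier2 is a nuclear protein of the same early wave. Zfp36 encodes tristetraprolin, which speeds the decay of short-lived mRNAs, and Dusp1 is a phosphatase that switches MAP kinases off, so both act as brakes on the response. Enzymatic digestion of a tissue at warm temperature is a well-known trigger of this response.

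Promoter sequence was at hand for 7 of the 10 genes, as the 250 bases before the RefSeq gene start in the GRCr8 assembly. The UMI counts were made on Rnor 6.0, so these coordinates belong to GRCr8 alone. The CArG box, the site of serum response factor, lay in the windows of Egr1 and Zfp36 and in 1.5% of 33469 promoters of this length. TGACGTCA, the site of the CREB and ATF family, lay in Jund, Ier2 and Dusp1 and in 1.59% of all promoters. The AP-1 letters TGANTCA were in none of the 7 windows and in 6.34% of all. The Egr letters GCGNGGGCG were in Jund and Zfp36 and in 4.29% of all, and TATAAA was in Fosb and Junb and in 12.9% of all. Both strands were searched, and a match describes the letters, not a bound site. Shown are the windows of both brakes, Zfp36 and Dusp1, and of Jund and Ier2, the other members with TGACGTCA, as examples of the 2 kinds of match. That of Egr1, with 2 CArG boxes, is not printed.
Zfp36, chr1:92799109-92799358, minus strand, CArG box in capitals: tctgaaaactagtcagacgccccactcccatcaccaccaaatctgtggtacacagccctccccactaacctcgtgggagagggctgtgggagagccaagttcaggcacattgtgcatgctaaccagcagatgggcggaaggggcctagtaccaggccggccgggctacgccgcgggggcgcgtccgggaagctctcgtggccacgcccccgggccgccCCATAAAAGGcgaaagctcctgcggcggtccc
Dusp1, chr10:17184603-17184852, plus strand, TGACGTCA in capitals: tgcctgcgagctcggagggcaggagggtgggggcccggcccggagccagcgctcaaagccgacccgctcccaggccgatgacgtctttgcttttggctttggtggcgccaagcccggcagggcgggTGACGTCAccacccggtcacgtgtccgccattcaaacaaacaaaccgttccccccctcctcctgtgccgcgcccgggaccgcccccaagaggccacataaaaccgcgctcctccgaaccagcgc
Jund, chr16:18769772-18770021, minus strand, TGACGTCA in capitals: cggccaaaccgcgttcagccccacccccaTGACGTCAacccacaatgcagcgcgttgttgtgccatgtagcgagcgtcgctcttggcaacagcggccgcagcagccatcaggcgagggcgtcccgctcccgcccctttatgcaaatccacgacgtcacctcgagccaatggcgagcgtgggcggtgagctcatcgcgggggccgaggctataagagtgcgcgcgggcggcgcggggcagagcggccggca
Ier2, chr19:40399123-40399372, plus strand, TGACGTCA in capitals: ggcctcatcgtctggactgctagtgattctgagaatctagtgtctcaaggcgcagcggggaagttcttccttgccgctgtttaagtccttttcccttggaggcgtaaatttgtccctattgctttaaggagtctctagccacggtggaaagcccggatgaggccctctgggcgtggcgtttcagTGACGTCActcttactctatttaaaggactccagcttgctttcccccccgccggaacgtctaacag

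The 6 libraries held 77387928 to 166875258 UMIs, and 75203 cells passed the filters, 7381 to 17443 per rat, with a median of 2537 to 9392 UMIs per cell. Any pair of libraries shared 20 to 64 cell barcodes, at most 0.623% of the smaller one. Cells were clustered without the 10 genes and named from marker genes, which gave 16 classes with at least 10 cells in 5 or more rats. Another 17043 cells stayed unnamed, among them 54.9% of young replicate 2, and 4133 secretory cells fell in no endocrine or acinar class. HFHF-old replicate 1 stood apart, since 2132 of its 2158 macrophage-like cells lay in a cluster that was 99.4% its own. HFHF-old replicate 2 held 8233 NK-like cells but only 11 macrophage-like cells, and too few alpha-, beta-, PP-, ductal- and smooth muscle-like cells to be used. In those 5 classes the HFHF-old group was 1 rat, the old group was 1 rat in mast-like cells, and the young group was 1 rat in neutrophil- and plasma-like cells.

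Fibroblast-, endothelial-, smooth muscle-, ductal- and macrophage-like cells carried the highest levels of the 10 genes, and acinar- and beta-like cells the lowest. Levels are the UMIs of a gene per 1000000 UMIs of the class in a rat (CPM), and they are compared between classes of the same rat. Because 1 UMI stands for 1 captured 3' end, CPM needs no length correction. In fibroblast-like cells the 10 genes summed to a median of 17332 CPM over 6 rats, with a range of 7984 to 23303 CPM. Endothelial-like cells followed at 15998 CPM, smooth muscle-like cells at 14403 CPM, ductal-like cells at 11248 CPM and macrophage-like cells at 11131 CPM. The next class, mast-like cells, stood at 6155 CPM, and the lowest medians were 743 CPM in beta-like and 587 CPM in acinar-like cells. The ranges over rats of neighbouring classes overlapped at each of the 15 steps of this order. Such ranges mix rats and do not show whether neighbours differ within a rat. PP-like cells, for example, were above the next class, beta-like cells, in each rat that had both. The ends of the order were separated in each rat, with the sum in fibroblast-like cells 17.1 to 157 times that in acinar-like cells in 6 of 6 rats. The upper end is HFHF-old replicate 2, with 53 acinar-like cells, and without it the range ends at 33.5 times.

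**Figure D1:**
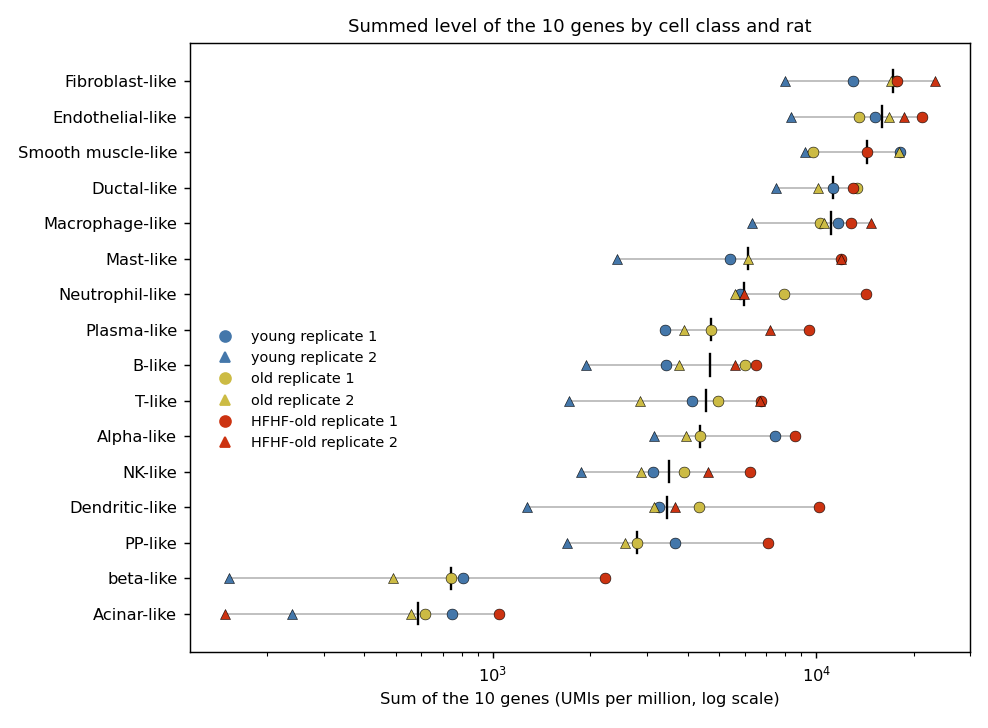
Sum of the 10 genes in CPM (log axis) for each of 16 cell classes, 1 point per rat, with color for the group, shape for the replicate, a black tick at the median and a grey line over the range. Fibroblast- and endothelial-like cells lie at the top, and young replicate 2 is the lowest point in most classes.

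The group of high classes was much the same inside single rats. Fibroblast- and endothelial-like cells ranked 1 to 3 in 6 of 6 rats, and smooth muscle- and ductal-like cells were in the top 5 in 5 of 5 rats. Macrophage-like cells were in the top 5 in 5 of 6 rats. The first place went to smooth muscle-like cells in 3 rats, to fibroblast-like cells in 2 and to endothelial-like cells in 1. The UMI total of secretory cells was dominated by their products, since hormone and digestive enzyme genes took 52.0 to 73.4% of the UMIs of acinar-like cells and 58.5 to 83.1% of those of beta-like cells. With those genes left out of the total, acinar-like cells stood at 1485 CPM and beta-like cells at 2782 CPM, still the 2 lowest classes. Alpha-like cells moved from 4371 to 8144 CPM and from rank 11 to rank 6, and PP-like cells from 2792 to 5456 CPM and from rank 14 to rank 9. Levels of single genes below were taken on all UMIs and were not recomputed in this way. Their lowest places in acinar- and beta-like cells therefore hold for that total only.

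Fos and Egr1 had their highest medians over rats in fibroblast-like cells. Smooth muscle-like, ductal-like and some other classes lack 1 rat, so the order of medians is not the order in every rat. Within single rats Egr1 was highest in fibroblast-like cells in 5 of 6, and Fos in 3 of 6, with smooth muscle-like cells above in the other 3. Fos, the founding member of its family, stood in fibroblast-like cells at 2047 and 1304 CPM in the young rats, 3353 and 3019 CPM in the old rats and 3519.8 and 4578 CPM in the HFHF-old rats. Both young rats were below the other 4, and the 2 HFHF-old rats were the highest. Egr1 in the same cells stood at 2238 and 1199.7 CPM in the young rats, 2951 and 3826 CPM in the old rats and 2883 and 4422 CPM in the HFHF-old rats. Here the young rats were again the lowest, but the old and HFHF-old rats overlapped. Egr1 had its lowest median in NK-like cells, at 46.4 CPM, and Fos in acinar-like cells, at 37.4 CPM. In each of 6 rats Fos was higher in fibroblast- than in acinar-like cells, by 24.9 to 206 times. The upper end is HFHF-old replicate 2, where acinar-like cells held 6 Fos UMIs, and without that rat it is 83.0 times.

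For the Jun family and Fosb other classes had the highest medians. Jun, the main partner of Fos, had its highest median in endothelial-like cells, at 2480 and 1529 CPM in the young rats, 2405 and 2147 CPM in the old rats and 4061 and 3245 CPM in the HFHF-old rats. The HFHF-old rats were above the other 4, and old and young overlapped. Endothelial-like cells led for Jun in the 2 HFHF-old rats only, and smooth muscle- or ductal-like cells led in the other 4. Junb led in endothelial-like cells in 5 of 6 rats, with a median of 1762 CPM, and had its lowest median in acinar-like cells, at 48.1 CPM. Fosb had its highest median in smooth muscle-like cells, at 1608 CPM, and led there in 2 of 5 rats. Jund, which most cells express without a stimulus, was the most even of the 10 genes by class medians. Its highest median, 1243 CPM in mast-like cells, was 15.3 times its lowest, 81.3 CPM in beta-like cells, against 116 times for Atf3. Both ratios use all UMIs, and beta-like cells are the lowest class in both. Mast-like cells led for Jund in the 2 HFHF-old rats only, on 14 and 22 cells, and macrophage-like cells led in both young rats.

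Atf3 and the brakes followed. Atf3 had its highest median in smooth muscle-like cells, at 966 CPM over 5 rats, where it led in 3. On all UMIs, hormones included, its lowest was in beta-like cells, at 8.32 CPM, with NK-like cells next at 12.2 CPM. In beta-like cells it rested on 23 and 4 UMIs in the young rats, 36 and 39 UMIs in the old rats and 272 UMIs in HFHF-old replicate 1. Dusp1 had its highest median in macrophage-like cells, at 2655 and 1309.7 CPM in the young rats, 1683 and 2220.3 CPM in the old rats and 1404 and 2542 CPM in the HFHF-old rats. All 3 groups overlapped there, and macrophage-like cells led in 3 of 6 rats, 1 of them with 11 such cells. Zfp36 and Ier2 each led in endothelial-like cells in 5 of 6 rats, with medians of 1175 and 1016 CPM, and had their lowest medians in beta-like cells, at 36.2 and 26.2 CPM. In the order of each gene, the ranges over rats of neighbouring classes overlapped at all 15 steps for 8 of the 10 genes. For Jund and Zfp36 they overlapped at 14 steps. Differences within a rat are not shown by such ranges.

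**Figure D2:**
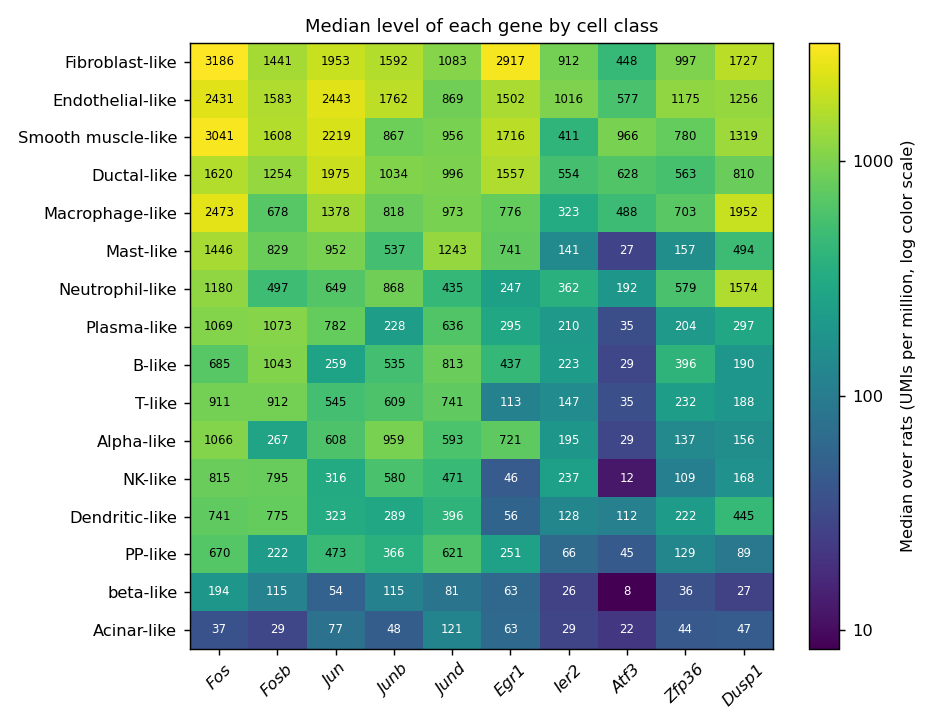
Median level of each of the 10 genes over rats in each of 16 classes, in CPM, with the value printed in each field and a log color scale. The 5 upper classes are high for most genes, Jund is the most even, and Dusp1 has its highest median in macrophage-like cells at 1952 CPM.

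The share of cells with these RNAs differed widely between genes and classes. To put cells of different depth on 1 footing, each was thinned to 1000 UMIs and shallower cells were left out, 297 to 4085 per rat. Egr1 was then seen in a median of 83.8% of fibroblast-like cells, with a range of 56.8 to 87.0% over rats, and in 3.79% of NK-like cells, with a range of 1.73 to 10.2%. Fos was seen in 80.0% of macrophage-like, 79.5% of fibroblast-like and 5.42% of acinar-like cells. Atf3 was seen in 43.0% of ductal-like and 1.16% of NK-like cells. Without thinning the medians for Egr1 were 94.2% of fibroblast-like and 22.9% of NK-like cells, at median depths of 9362 and 7218 UMIs, and those for Fos 91.5% of fibroblast-like and 14.2% of acinar-like cells, the last at 3604.5 UMIs. No class is known to lack these genes, so the share that free RNA alone would give was not measured, and its part in the low shares of NK- and acinar-like cells was not tested. The 1000 UMIs also include hormone and digestive enzyme genes, which took 52.0 to 73.4% of the UMIs of acinar-like cells. Their part in the low share there was not tested either.

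The 2 young rats differed more from each other in the median over genes and classes than the rats of the other groups did. In 138 of 140 pairs of a gene and a class the level was higher in young replicate 1, and the exceptions were Ier2 in B-like and in ductal-like cells. The median absolute gap was 1.11 on the log2(CPM + 1) scale, or 2.16-fold, against 0.42 over all genes tested in the same classes. Of these pairs, 52.9% lay beyond the 90th percentile of all genes. Old replicates 1 and 2 were 0.42 apart against 0.39 for all genes, with 10.0% of pairs beyond that percentile, and the HFHF-old rats 0.65 apart against 0.48, with 20.0% beyond it. Class by class, the median gap of the 10 genes was wider in young than in old rats in 12 of 13 shared classes, the exception being B-like cells (0.92 and 0.94). It was wider than in HFHF-old rats in 7 of 9, the exceptions being acinar-like cells (1.88 and 3.11) and dendritic-like cells (1.41 and 1.46). The 3.11 rests on HFHF-old replicate 2, with 53 acinar-like cells and 0 to 11 UMIs per gene. The 90th percentile over all genes was 3.16 there. No test was made of a difference between 2 single rats.

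Within the young group the gap was widest for Atf3 and narrowest for Jund. Atf3 was a median of 4.06-fold apart over 14 classes, Fosb 3.42-fold, Egr1 3.28-fold and Dusp1 2.99-fold. Zfp36 was 2.30-fold apart, Jun 2.00-fold, Fos 1.99-fold, and Junb, Ier2 and Jund between 1.52- and 1.67-fold. Between the old rats Jund had the widest gap of the 10 genes, at 2.17-fold, and was higher in old replicate 1 in 13 of 15 classes. In HFHF-old rats Jund was higher in replicate 1 in 11 of 11 classes, by a median of 2.03-fold.

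**Figure D3:**
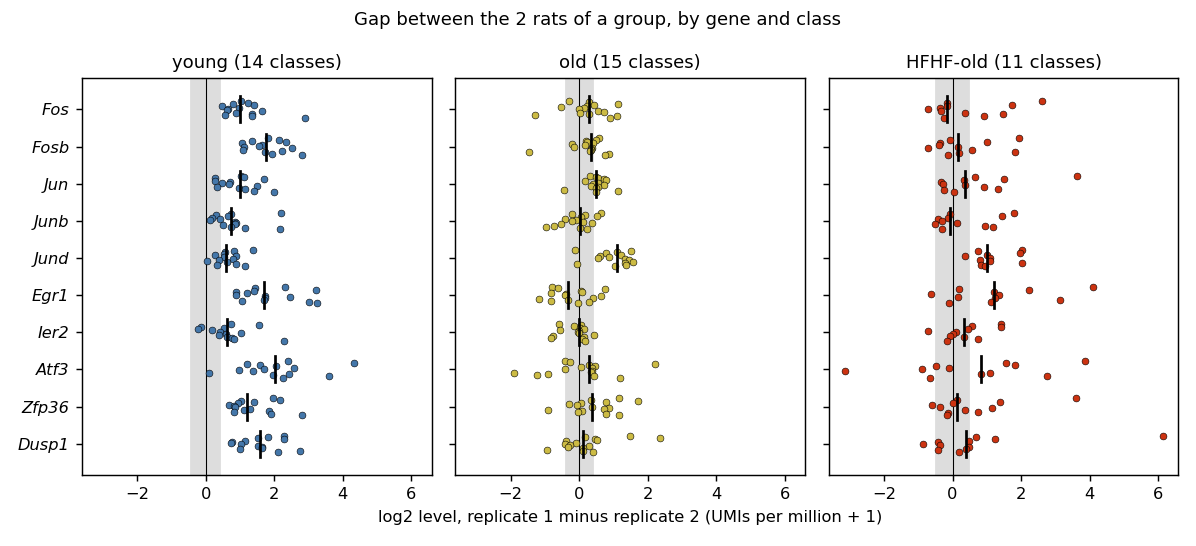
Difference in log2(CPM + 1) between replicate 1 and replicate 2 of each group for the 10 genes, 1 point per class (14 young, 15 old, 11 HFHF-old), with a black tick at the median and a grey band of the median absolute gap over all genes. Nearly all young points lie to the right of 0, and Jund lies mostly to the right in each group.

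Heat shock genes, another early response to stress, and measures of RNA quality were compared in the same way. Between the young rats the sum of the 10 genes was higher in replicate 1 in 14 of 14 classes, by 1.5 to 5.29 times with a median of 2.06. Summed heat shock genes stood at a median ratio of 0.974 and were higher in replicate 1 in 5 of 14 classes. The mitochondrial share was higher in replicate 1 in 14 of 14 classes, with a median ratio of 1.61, and the median UMI count per cell had a median ratio of 0.710. Between the old rats the mitochondrial share was also higher in replicate 1, in 14 of 15 classes with a median ratio of 1.25, and the depth ratio was 2.497, while the ratio for the 10 genes was 1.21 and that for heat shock genes 1.20. In HFHF-old rats the ratio of replicate 1 to replicate 2 was 1.16 for the 10 genes and 1.35 for heat shock genes. The heat shock genes were higher in replicate 1 in 11 of 11 classes. Between these rats the mitochondrial share was higher in replicate 1 in 6 of 11 classes, with a median ratio of 1.06. The depth ratio was 0.819. The part of mitochondrial share and depth in the gap was not tested. Over the whole library the 10 genes summed to 9215 and 2932 CPM in the young and 8189 and 5253 CPM in the old rats. In the HFHF-old rats the sums were 12269.6 and 6763 CPM. These whole-library sums mix classes that differ in level and in cell number between rats. HFHF-old replicate 2 held 8233 NK-like cells among 11716, and young replicate 2 held 5644 unnamed cells among 10283.

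Young replicate 2 was the low end of most comparisons. In the 8 classes that all 6 rats could fill, it was the lowest of 6 in 8 of 8 classes for Fos, Fosb, Junb and Atf3, in 7 for Jun and Egr1, and in 6 for Ier2, Zfp36 and Dusp1. For Jund it was the lowest in none, and old replicate 2 was the lowest in 7 of 8. HFHF-old replicate 1 had the highest sum of the 10 genes in 6 of the 8 classes. Dusp1 went another way, with young replicate 1 the highest in 5 of 8.

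Age on the normal diet was compared next, with UMIs summed per rat and class and tested with edgeR's quasi-likelihood test. If the young pancreas was digested at the start of the feeding, age and date of preparation cannot be told apart. To be called in a class, a gene needed a p under 0.05 after Benjamini-Hochberg adjustment and a change of more than 1.5-fold. None of the 160 pairs of a member and a class was called between old and young rats, while 0.108% of 150966 pairs were called over all genes. At an unadjusted p under 0.05 there were 23 pairs (14.4%), against 6.07% over all genes, and DESeq2 called 3, Junb in B- and fibroblast-like cells and Jun in plasma-like cells, where the young group was 1 rat. Over all genes DESeq2 called 622 of the 150966 pairs. The median log2 fold change of old over young was 0.57 with 131 pairs above 0, against 0.01 over all genes. This median was 0.16 without young replicate 2 and 1.17 without young replicate 1, so it moved with which young rat was kept.

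Junb and Ier2 were above 0 in 16 of 16 classes in this comparison, Junb with log2 fold changes of 0.61 to 1.52. In fibroblast-like cells Junb stood at 1019 and 924 CPM in the young rats and 2252 and 2413 CPM in the old rats. The groups did not overlap and the young rats were close together, with a log2 fold change of 1.25 ± 0.31 (SE) and an adjusted p of 0.39. Atf3 in macrophage-like cells had the lowest adjusted p of the 160 pairs, 0.189, at 281 and 141 CPM in the young and 419 and 556 CPM in the old rats, with a log2 fold change of 1.29 ± 0.39 (SE). Jund went the other way, below 0 in 14 of 16 classes, and in 16 of 16 when CPM were taken on UMI totals without TMM scaling. Both old rats were below both young rats for Jund in only 5 of 13 classes. Old replicate 2 was the lowest of 6 rats in 7 of the 8 classes that all could fill. Dusp1 was above 0 in 11 classes in the fit and in 7 on UMI totals.

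Counted without a model, both old rats were above both young rats in 40 of 130 pairs (30.8%), where 14.0% of all genes were. Junb made up 9 of these and Ier2 8. Both were below in 5 pairs, where 21.4% of all genes were, and all 5 were Jund. In plasma-like cells, where all 10 genes were above 0, the young group was 1 rat of 46 cells whose TMM factor was 1.5 against 0.82 in both old rats. Dusp1 there had a log2 fold change of 0.85, yet stood at 288 CPM in the young rat and 297 and 274 CPM in the old rats.

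The diet at matched age was tested in the same fits, and this comparison shares the old rats with the one above. Again no member was called in 160 pairs by edgeR, while 0.0636% of pairs were called over all genes. Unadjusted p under 0.05 was reached in 16 pairs (10.0%), against 8.16% over all genes, and DESeq2 called 1, Jund in mast-like cells, where the old group was 1 rat with 24 cells and 17 Jund UMIs. Over all genes it called 526 pairs. The median log2 fold change of HFHF-old over old was 0.49 with 114 pairs above 0, against -0.01 over all genes. Without HFHF-old replicate 1, which left 110 pairs, the median was 0.17.

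Fosb was above 0 in 16 of 16 classes, and Jun and Jund in 15 of 16. For Jund both HFHF-old rats were above both old rats in only 4 of 10 classes, against 8 of 10 for Fosb and for Jun. In the 8 classes with all 6 rats, old replicate 2 was the lowest for Jund in 7 and HFHF-old replicate 1 the highest in 6. Fosb in endothelial-like cells stood at 1330.4 and 1551 CPM in the old rats and 2396 and 3103 CPM in the HFHF-old rats. The groups did not overlap, at a log2 fold change of 0.89 ± 0.55 (SE) and an adjusted p of 0.994. The 93 endothelial-like cells of HFHF-old replicate 2 also held 7321 CPM of haemoglobin RNA, against 4.64 to 520 CPM in the other rats. Junb was below 0 in 14 of 16 classes, and in 10 on UMI totals. In fibroblast-like cells Junb stood at 1354 and 1829 CPM in the HFHF-old rats, below both old rats, with a log2 fold change of -0.57 ± 0.30 (SE) and an adjusted p of 0.841. Ier2 was above 0 in 6 classes in the fit and in 10 on UMI totals, so its direction depends on the scaling.

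Atf3 in beta-like cells had the lowest adjusted p for the diet, 0.211. It stood at 8.32 and 0.954 CPM in the young rats, 9.23 and 3.46 CPM in the old rats and 44.96 CPM in the only HFHF-old rat. The log2 fold change of HFHF-old over old was 2.05 ± 0.55 (SE), and with 1 rat in the group its spread was taken from the others. In beta-like cells the TMM factor was 1.83 in that rat and 1.06 and 0.90 in the old rats, so this change is smaller than the CPM show. Both HFHF-old rats were above both old rats in 45 of 100 pairs, where 22.8% of all genes were, led by Fosb and Jun with 8 of 10 classes each and Atf3 with 7. Both were below in 5 pairs, where 16.5% of all genes were, 3 of them Junb.

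**Figure D4:**
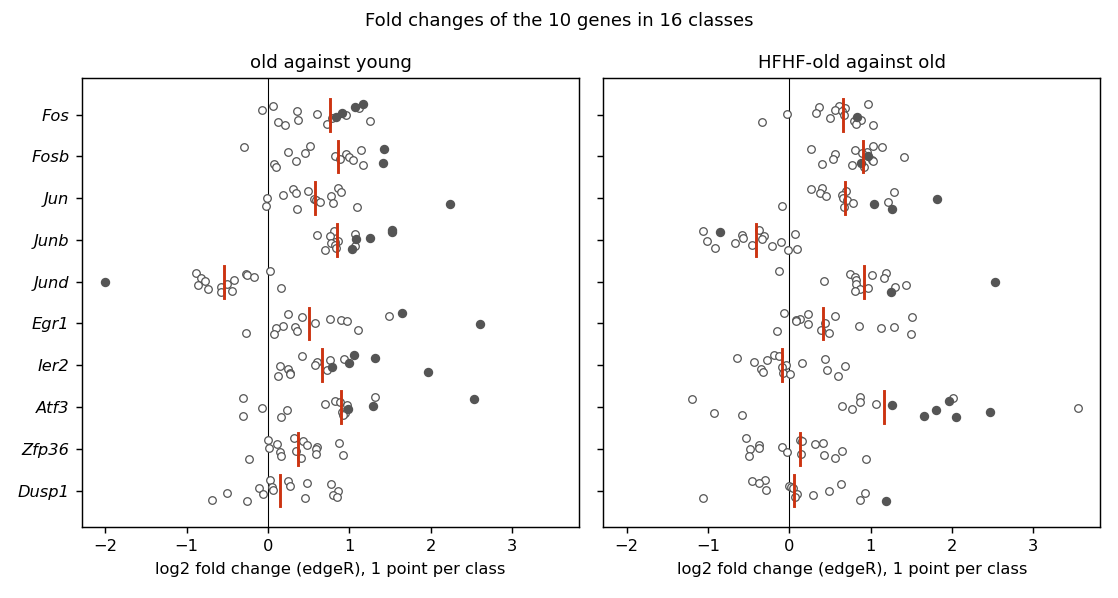
Log2 fold changes of the 10 genes in 16 classes from edgeR, for old against young (left) and HFHF-old against old (right), 1 point per class, filled where the unadjusted p is under 0.05, with a tick at the median. Jund lies mostly to the left of 0 in the age panel and to the right in the diet panel, Junb mostly the other way, and no point passed the adjusted threshold. Both panels share the same old rats, which enter them with opposite sign, so mirrored directions are not independent.

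Other genes of the early response were called in macrophage-like cells. Of 31 other immediate early genes tested in 395 pairs, 4 were called, all higher in old than in young rats and all in macrophage-like cells. That class held 120 of the 163 age calls over all genes, from 11780 genes tested in it. Over all classes 47 of the 395 pairs (11.9%) reached an unadjusted p under 0.05, against 6.07% over all genes, and DESeq2 called 11. Nr4a3, an orphan nuclear receptor, stood at 6.70 and 1.77 CPM in the young rats and 30.3 and 32.5 CPM in the old rats, with a log2 fold change of 2.83 ± 0.43 (SE) and an adjusted p of 0.0216. Its relatives Nr4a2 and Nr4a1 rose by 2.16 ± 0.30 (adjusted p 0.0178) and 1.89 ± 0.28 (adjusted p 0.0192) on the log2 scale. Fosl2, an AP-1 member of the Fos family that also stands on the list of bZIP partners, rose by 1.13 ± 0.22 (adjusted p 0.0466). In the HFHF-old rats, also 20 months old, Nr4a3 stood at 24.3 and 22.3 CPM and Nr4a2 at 44.2 and 66.9 CPM. Both HFHF-old rats were below both old rats for these genes. Nr4a1 stood at 71.2 and 133.8 CPM there, against 104.7 and 110.8 CPM in the old rats. Fosl2 stood at 68.2 and 111 CPM, against 163 and 116 CPM in the old and 65.6 and 67.2 CPM in the young rats. HFHF-old replicate 2 held 11 macrophage-like cells. Among the 10 genes themselves Junb had a log2 fold change of 1.08 ± 0.36 (SE) in these cells and an adjusted p of 0.224. Calls for Nr4a2 were lost in 8 of 17 alternatives, those for Nr4a1 and Nr4a3 in 9 and that for Fosl2 in 15. All 4 were lost without HFHF-old replicate 1 or 2, which enter the shared estimate of spread, although the log2 fold change of Nr4a3 was then 2.84 and 2.82, and Fosl2 was also lost without old replicate 1 (0.95), young replicate 1 (1.11) or young replicate 2 (1.17).

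**Figure D5:**
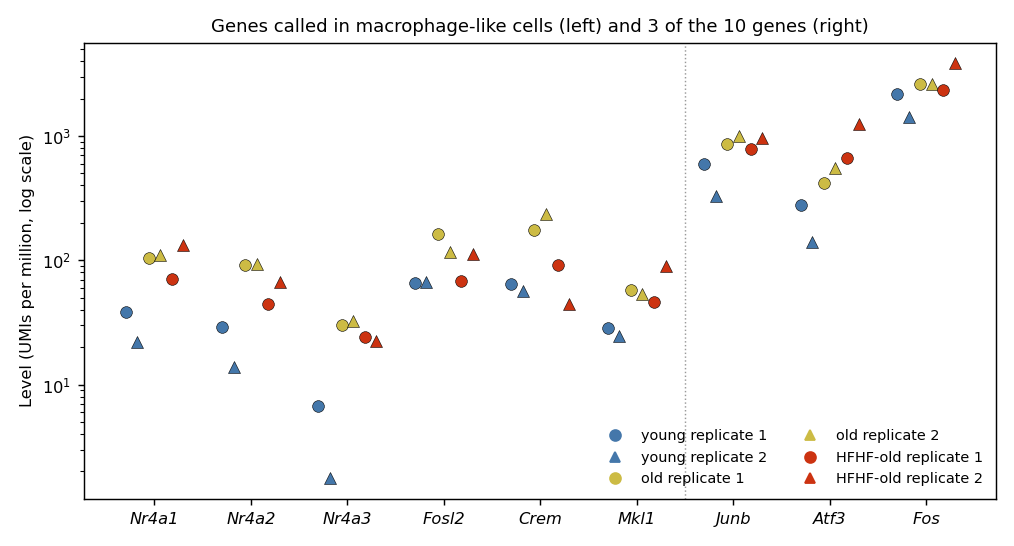
Level in macrophage-like cells, in CPM on a log axis, of 6 genes called higher in old than in young rats and of Junb, Atf3 and Fos, 1 point per rat with color for the group and shape for the replicate. For the 3 Nr4a genes and Crem both old rats lie well above both young rats, and Fos shows less distance, with 1417 to 2188 CPM in the young and 2599 to 2609 CPM in the old rats. Both HFHF-old rats lie below both old rats for Nr4a2, Nr4a3 and Crem, and on either side of them for Nr4a1.

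The upstream kinases and factors had 2 calls among 290 pairs, both higher in old macrophage-like cells. Over all genes 0.108% of pairs were called with age, and 120 of those 163 calls lay in macrophage-like cells. Crem, a cAMP-responsive factor, rose by 1.84 ± 0.28 on the log2 scale (adjusted p 0.0216) and Mkl1, a cofactor of serum response factor, by 1.14 ± 0.21 (adjusted p 0.0339). Crem stood at 64.7 and 56.5 CPM in the young, 176 and 237 CPM in the old and 92.3 and 44.6 CPM in the HFHF-old rats. Mkl1 stood at 28.5 and 24.5 CPM, 57.8 and 53.6 CPM, and 46.1 and 89.2 CPM in the same order. Crem was lost in 7 of 17 alternatives and Mkl1 in 13, both without HFHF-old replicate 1 (1.85 and 1.14) or 2 (1.83 and 1.13), and Mkl1 also without young replicate 1 (1.24) or 2 (1.05). No other gene of the bZIP partners was called besides Fosl2 in 137 pairs, of which 20 (14.6%) reached an unadjusted p under 0.05, against 7 (2.41%) of the upstream pairs and 6.07% over all genes. No feedback inhibitor of MAP kinase or NF-kB signals was called by edgeR in 211 pairs with age or with diet. An unadjusted p under 0.05 was reached in 28 pairs (13.3%) with age and 32 pairs (15.2%) with diet. Over all genes these shares were 6.07% and 8.16%. DESeq2 called 0 of the 211 pairs with age and 6 with diet. With age it called 2 of the upstream pairs and 0 of the bZIP pairs.

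For the diet, 2 of 170 pairs of the heat shock list were called by edgeR, 3 were called by DESeq2, and 38 (22.4%) reached an unadjusted p under 0.05, against 8.16% over all genes. Macrophage- and beta-like cells, where both edgeR calls lay, held 45 and 26 of the 96 diet calls over all genes. None was called with age, where 22 pairs (12.9%) reached an unadjusted p under 0.05, against 6.07% over all genes, and DESeq2 called 1. Bag3, a co-chaperone, stood in macrophage-like cells at 40.6 and 36.9 CPM in the old rats and at 205 and 89.2 CPM in the HFHF-old rats, with a log2 fold change of 2.13 ± 0.31 (SE) and an adjusted p of 0.0302. Without HFHF-old replicate 1 its log2 fold change was 0.79 and the call was lost, while without HFHF-old replicate 2 and its 11 cells it was 2.33 and was kept. The call was lost in 6 of 17 alternatives. Dnajb1, another co-chaperone, was called higher in beta-like cells at 2.43 ± 0.46 on the log2 scale (adjusted p 0.0219), with 3.08 and 4.88 CPM in the old rats and 43.1 CPM in the only HFHF-old rat. That call compares 1 rat with the old rats and assumes that it varies like the other groups. Its fitted change is smaller than the CPM show, at a TMM factor of 1.83 in that rat against 1.06 and 0.90 in the old rats. This call was lost in 7 of 15 alternatives, among them without old replicate 1, where the log2 fold change was 2.05, and without young replicate 1 or 2, where it was 2.43 in both. The other immediate early genes, the upstream factors and the bZIP partners had no call with diet by edgeR, with 61 of 395 (15.4%), 24 of 290 (8.28%) and 13 of 137 pairs (9.49%) at an unadjusted p under 0.05, the last 2 shares close to the 8.16% over all genes. DESeq2 called 4, 0 and 1 of these pairs.

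Several other genes followed the same pattern over classes and rats. Over 70 sums of at least 50 cells of a class in a rat, and among 6710 genes, the mean log2 level of the 10 genes was most like that of Ppp1r15a, which encodes GADD34, a subunit of a stress-induced phosphatase, at a Pearson r of 0.96. Also close were Rhob, a small GTPase, at 0.94, and AC134224.2 and the factor Klf4, both at 0.89. For Fos alone, Junb stood at 0.93 and Ppp1r15a at 0.92. Of the 10 genes, Jund was the least like their common mean, at 0.76, and Jun the most, at 0.96. These sums share libraries and classes and are not independent, so the correlations describe the data only.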

How the data were processed

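UMIs were counted in single-cell suspensions of the pancreas of 6 rats with droplet 3' chemistry. The authors aligned reads with Cell Ranger to Rnor 6.0 and deposited whole-number UMI counts per gene and barcode, not normalized. The file header gives Cell Ranger version 5.0.0, while the study's methods name another version. Of 78024 barcodes, 75203 were kept after filters set to the limits in the study's methods, a number that is not the study's own cell count, namely at least 200 genes, at most 25% mitochondrial UMIs and removal of the top 1% of barcodes by number of genes. Cells of all rats were clustered together without batch correction (scanpy 1.11.5, 2000 variable genes, scaled values, 30 components, 15 neighbours, Leiden resolution 1), with the 10 genes held out. The clustering settings and the limits for naming a class from markers were set after the data were seen. The members, gene lists and markers were chosen with earlier results of these data known.

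UMIs were summed per rat and class with at least 10 cells. Sums were tested with edgeR 4.0.16 (quasi-likelihood, TMM, filterByExpr, 3 groups in 1 fit per class), and p was adjusted over all genes of a class. DESeq2 1.42.0 was an alternative. In simulated counts with 200 genes changed by 2 on the log2 scale, the diet test recovered 61.5% of them in fibroblast-like cells and 3.50% in endothelial-like cells. Of the calls made, 3.15% and 12.5% were wrong. The simulated sets held 13177 and 9815 genes. Both classes have 2 rats per group, so classes with 1 rat in a group were not covered. Replicates are separate rats by their labels, so p-values measure the spread between animals and their preparation. Digestion day and sequencing run are not given in the sources used here, so no batch could be fitted. By the study's methods the baseline rats were killed at the start of the feeding and the others after up to 18 months. If digestion followed at once, age and date of preparation cannot be told apart. The smallest p that exact permutation allows with 2 rats against 2 is 0.333, and no such test was run. Named genes are the 10 members, up to 4 called genes of each of 5 lists per contrast with the largest change, and the 5 genes most like the members (3 for Fos), of which 1 is not reported here. Doublets were kept, and leaving out 10.8% of barcodes most like simulated doublets was an alternative. UMI depth covers counting error only. Promoter sequence came from RefSeq (GRCr8) for 7 of the 10 genes.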

Additional observations from a re-analysis of the deposited data

How the results depend on the processing

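With 2 rats per group, with clusters that some rats dominate and with 11 macrophage-like cells in HFHF-old replicate 2, counts of calls moved with the setting. For HFHF-old against old, calls among the 10 genes numbered 0, and 2 with 10 unscaled components (chosen after the data were seen), 1 with DESeq2 and 11 without the filter on low counts. Atf3 recurred among these calls, also in alpha-, beta- and PP-like cells, where the HFHF-old group was 1 rat. Leaving out 1 rat gave 0 to 5. Calls among all genes numbered 96, and 526 with DESeq2, 535 at Leiden resolution 0.5, 26 with at least 50 cells, 35 with bias-adjusted deviance (added later) and 3356 without the filter, with 387 to 796 when 1 rat was left out. For old against young, calls among the 10 genes numbered 0, and 3 with DESeq2, 4 at resolution 0.5 (all in plasma-like cells) and 5 without the filter, with 0 to 4 when 1 rat was left out. Calls among all genes numbered 163, and 1184 with 10 unscaled components, 622 with DESeq2, 548 at resolution 0.5, 19 with at least 50 cells, 42 with bias-adjusted deviance, 98 with the 10 genes kept in the clustering, 79 with a mitochondrial limit of 10% and 3071 without the filter, with 157 to 642 when 1 rat was left out. Ier2 in mast-like cells, at a log2 fold change of 0.69 for the diet, turned to -0.48 with 10 unscaled components and -0.011 at resolution 0.5. The cause of these shifts was not tested. Member pairs tested numbered 160 in the main setting, with DESeq2 and without the filter, 140 at resolution 0.5 and 130 with 10 unscaled components. Over all genes 0.0636% (diet) and 0.108% (age) of pairs were called in the main setting. Pairs tested over all genes are not given for each alternative, so whether its member calls exceed the share over all genes was not tested. Gaps between rats of a group kept their size within the spread in each alternative run. With hormone and digestive enzyme genes out of the total (added later), the summed level was 1485 CPM in acinar-, 8144 CPM in alpha-, 2782 CPM in beta- and 5456 CPM in PP-like cells. At 2000 UMIs per cell the share of fibroblast-like cells was 82.5% for Jun, 79.6% for Junb, 75.7% for Jund, 68.7% for Ier2, 69.2% for Zfp36 and 78.0% for Dusp1.

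Replicate numbers are shared between groups, but the labels tie them to no litter, batch or day, and deviations of same-numbered rats correlated at a median r of 0.12 (young and old), 0.07 (old and HFHF-old) and 0.01 (young and HFHF-old) over classes. With a replicate block, 327 pairs of all genes were called for the diet and 535 for age, and among the 10 genes 0 and 1, the last being Atf3 in macrophage-like cells.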

Other observations

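Cells outside the 16 classes carried the 10 genes as well. In the unnamed cells their sum was 7223 and 2338 CPM in the young rats, 7275 and 5858 CPM in the old rats and 12149 and 10775 CPM in the HFHF-old rats. Young replicate 2 was again the lowest and the HFHF-old rats the highest, and its unnamed cells numbered 5644 of 10283. Secretory cells of no endocrine or acinar class ranged from 1753 CPM, in 10 cells of HFHF-old replicate 2, to 5717 CPM in young replicate 1. Mesothelial-like cells, which line the surface of the organ, were too few to be tested. Their sum was 2349 CPM in 34 cells of young replicate 1, 5000.1 and 12363 CPM in 49 and 37 cells of the old rats and 3950.5 CPM in 14 cells of HFHF-old replicate 1. Egr1 made up 2284 CPM and Fos 2949 CPM of the highest of these.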
